A study of Mus musculus with 6 samples.

Results

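The urocortin and CRH receptor system comprised 7 genes, taken as every gene on the array whose name in the scanner files was Ucn, Ucn2, Ucn3, Crh, Crhr1, Crhr2 or Crhbp. They were read by 8 of the 39429 probes, and by 7 of 31829 gene names, with a pair of probes for Crhr1 and a single probe for each of the others. Expression was measured on single-colour arrays in pancreatic islets of male mice aged 6 weeks. Control mice were Nkx6.1fl/+;Pdx1-CreERTM and mutant mice Nkx6.1fl/-;Pdx1-CreERTM, on a mixed background of FVB/N, C57Bl/6J and Cd1, and 3 samples were taken of each genotype (A, B and C). Both groups thus carried a floxed allele of the transcription factor gene Nkx6-1 and the tamoxifen-activated recombinase under the Pdx1 promoter, and tamoxifen was injected 4 times in both, at 2 mg per 25 g, between the ages of 4 and 6 weeks. The second allele was wild type in controls and null in mutants, so effects of the null allele before tamoxifen cannot be told apart from those of the induced deletion. Each sample was RNA pooled from 2 pancreata. The groups were littermates, and the labels do not say which pools shared a litter.

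CRH and the urocortins are related peptides that act on a pair of class B G protein-coupled receptors. CRH acts mainly on the receptor encoded by Crhr1, urocortin 2 and urocortin 3 on the receptor encoded by Crhr2, and urocortin on both, while CRH-binding protein (Crhbp) is a secreted protein that sequesters CRH and urocortin. Both receptors couple to Gs and raise cyclic AMP. In mouse islets urocortin 3 is made by beta cells, appears as they mature and is released with insulin, and it acts on delta cells, which answer with somatostatin. The receptor CRHR1 is known from beta cells, where its activation increases insulin secretion at high glucose.

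The results turned on the probes for Ucn3 and Crhr1, of which the first 30 of 60 bases are shown to identify the transcript stretches that were read, all in lower case.
Ucn3, probe at chr13:3940178-3940237: tctcagtacatacacactcaagcgcagtat
Crhr1, brighter probe at chr11:104036691-104036750: cagcgacaggtggctcctgggacaactaac
Crhr1, dimmer probe at chr11:104036182-104036241: atcatggaaaactcccttctgagactgtaa
Positions are those of the files (mm9), with the Ucn3 probe on the minus strand and both Crhr1 probes on the plus strand. The Crhr1 probes lay 449 bases apart, and so read separate stretches of the gene. The other probes lay at chr5:31440362-31440421 (Ucn), chr9:108888494-108888553 (Ucn2), chr3:19593482-19593541 (Crh), chr6:55040043-55040102 (Crhr2) and chr13:96201903-96201962 (Crhbp). Whether a probe lies in coding or untranslated sequence was not analysed here.

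The scanner software called 63.9% to 76.3% of probes well above background per array, and the lowest signal so called was 11.7 to 16.7 on 4 arrays but 40.0 on mutant A and 34.2 on mutant B. Those latter arrays therefore had a higher floor. Slide 1 carried control A, mutant B and mutant C, and slide 2 carried control B, control C and mutant A. All 7 beta cell markers were well above background on all arrays, and so were all 12 acinar markers. These detection calls therefore do not separate islet from acinar tissue. Levels are normalized log2 signals, the log2 of the background-corrected signal minus the 75th percentile of the array, and differences are mutant minus control. The threshold for a call was an adjusted p (Benjamini-Hochberg) below 0.05 in limma, fitted over 22775 gene names. For Nkx6-1 itself the control arrays read 4.79, 4.85 and 4.64 and the mutant arrays 4.32, 4.06 and 4.45, in the order A, B, C, a difference of -0.48 (SE 0.14) that did not pass (adjusted p = 0.131). Whether its probe lies within the deleted stretch was not analysed here, so these values do not check the labels.

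Of the 7 genes, 4 were measured well above background on all arrays of at least 1 group and tested, namely Ucn3, Crhr1, Crhr2 and Crhbp, while Ucn, Ucn2 and Crh were not. Ucn3 fell in mutant islets to less than its level on any control array. Crhr1 was lower by a similar amount on each mutant array and did not pass at the threshold used. Crhr2 and Crhbp had higher means in mutants and did not pass. Thus 1 of the 4 tested members was called, downward, where 1.12% of all genes tested were called lower, 1.41% higher and 2.53% either way. The mutant arrays lay entirely below the control arrays for 2 of the 4 (14.0% of all genes tested) and entirely above them for 1 (12.3% of all genes tested). The members had been chosen with results on these data known, so these counts describe them and are no independent evidence.

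**Figure D1:**
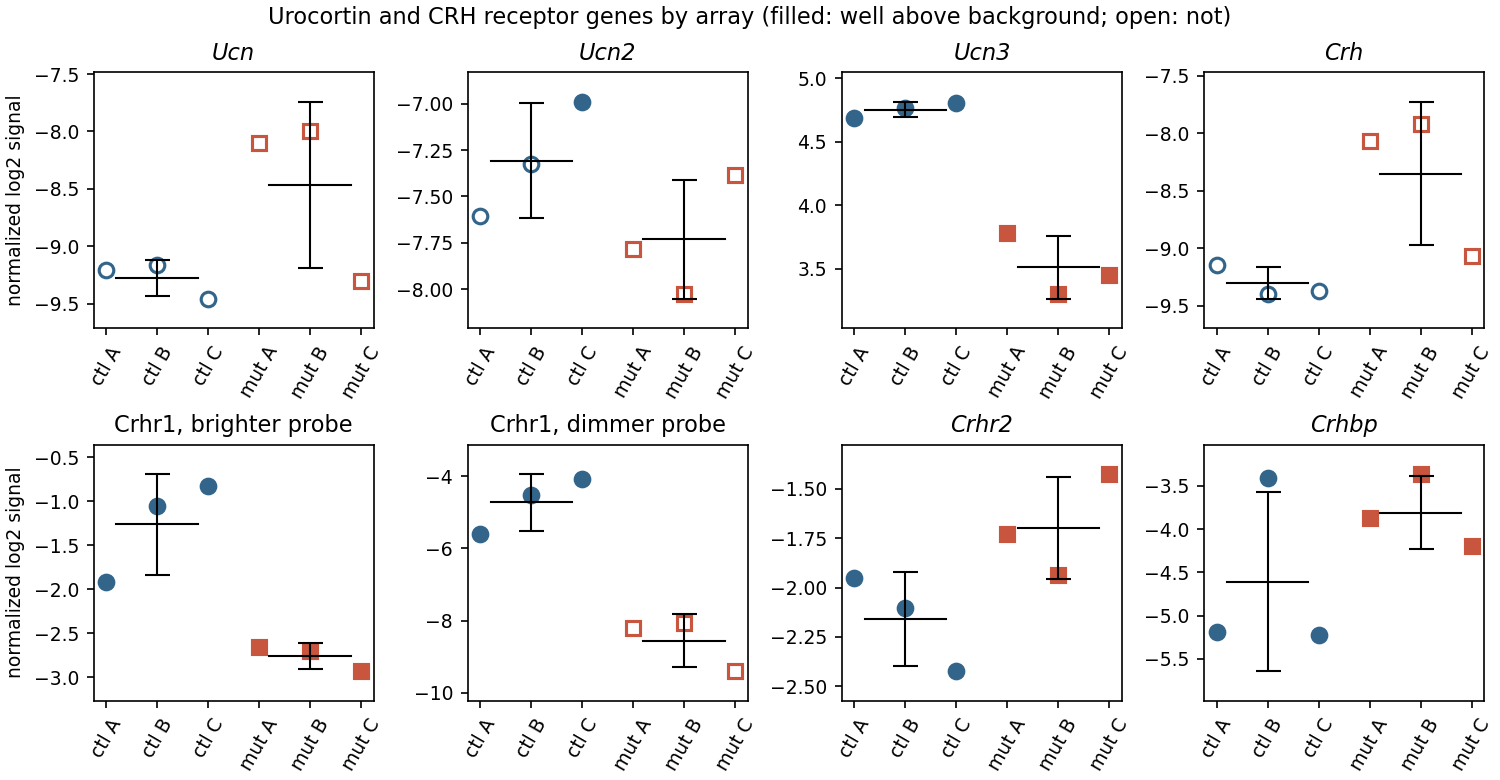
Normalized log2 signal of the 8 probes of the urocortin and CRH receptor genes on each of the 6 arrays (ctl, control; mut, mutant), with the mean and SD of each group of 3 as black bars; filled points were well above background and open points were not. Ucn3 read 4.69 to 4.81 in controls and 3.30 to 3.78 in mutants, and the dimmer Crhr1 probe was well above background on the 3 control arrays and on no mutant array.

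Among the ligands, Ucn3 was the gene with a bright signal. Its background-corrected spot signal was 49377, 67432 and 72704 in controls A, B and C and 33163, 18152 and 17694 in mutants A, B and C. All mutant arrays lay below all control arrays, also without scaling between arrays, and none of the 6 spots had a saturated pixel. On the normalized log2 scale the levels were 4.69, 4.77 and 4.81 in controls (4.75 ± 0.06, SD, n = 3) and 3.78, 3.30 and 3.45 in mutants (3.51 ± 0.25, SD, n = 3). The controls were close together, and mutant A was the highest of the mutants. The fitted difference for Ucn3, which fell, was -1.24 (SE 0.15, adjusted p = 0.0236), which is 2.37-fold lower with a 95% interval of 1.84 to 3.04. In islets, fewer beta cells and less Ucn3 RNA per beta cell cannot be told apart by these arrays.

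The fall in Ucn3 was seen on both slides, at -1.31 within slide 1 and -1.0 within slide 2, and a fit with a slide block gave -1.16 (adjusted p = 0.0235). Its size moved little when single arrays were left out (-1.38 to -1.14), but the call depended on them. Leaving out control B gave an adjusted p of 0.112, control C 0.116, mutant B 0.0949 and mutant C 0.0686, whereas it was 0.0470 with control A left out and 0.0256 with mutant A left out. Without mutants A and B together the difference was -1.31 (adjusted p = 0.0805, on 1 mutant array assumed to vary as the controls do). An exact two-sided permutation test of 3 against 3 arrays gave p = 0.1, the smallest that this design allows.

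**Figure D2:**
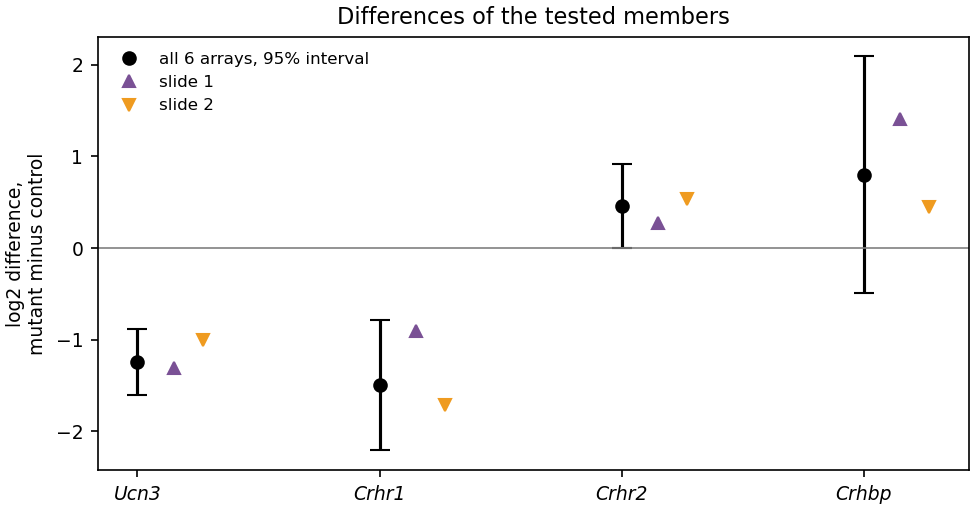
Log2 difference, mutant minus control, of the 4 tested genes; black points with bars give the estimate over 6 arrays with its 95% interval from limma, upward triangles the difference within slide 1 and downward triangles that within slide 2. Ucn3 (-1.31 and -1.0) and Crhr1 (-0.90 and -1.72) lay below 0 on both slides, and Crhr2 (0.27 and 0.53) and Crhbp (1.41 and 0.45) above 0.

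The remaining ligands were at or near background. Urocortin (Ucn) gave signals of 3.25, 4.32 and 3.69 in controls and 8.77, 7.22 and 2.57 in mutants, and Crh gave 3.39, 3.69 and 3.93 in controls and 8.98, 7.63 and 3.03 in mutants. Neither was well above background on any array. Mutants A and B read higher than the rest for both genes, and the lowest signal of any probe on those arrays was likewise higher, at 7.98 and 6.85 against 2.31 to 3.31 elsewhere. No fold is therefore given. Ucn2, the urocortin 2 gene, gave 9.84, 15.5 and 20.4 in controls and 10.9, 7.08 and 9.69 in mutants, and was well above background on control C alone. The groups overlapped. At this sensitivity a low level of these transcripts, or a change in it, was not detectable.

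Of the receptors, Crhr1 read lower in mutants with both probes. The brighter probe, which stood for the gene in the fit, had signals of 509.8, 1198 and 1465 in controls A, B and C and 382.5, 284.3 and 212.9 in mutants A, B and C. Control A was the lowest control, and the mutant arrays all lay below it. On the normalized log2 scale these were -1.91, -1.05 and -0.83 (-1.26 ± 0.57, SD, n = 3) and -2.65, -2.70 and -2.93 (-2.76 ± 0.15, SD, n = 3). The spread was larger among controls than among mutants. The gene was 2.82-fold lower in mutants (difference -1.50, SE 0.29, 95% interval of the fold 1.73 to 4.62) with an adjusted p of 0.0616, which did not pass.

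The Crhr1 call depended on the setting. It did not pass in limma under quantile normalization (adjusted p = 0.0617), cyclic loess (0.0585) or median scaling (0.0594), nor with dim probes kept in the fit (0.0928). It also failed in 5 of 6 fits with 1 array left out. A fit with a slide block gave -1.31 (adjusted p = 0.0586), and within slides it was -0.90 on slide 1 and -1.72 on slide 2. The gene passed without control A (-1.82, adjusted p = 0.0270), with normexp background correction (0.0441, and 0.0443 with quantile normalization), with the deposited equalized values (0.0453), with only probes well above background on each of the 6 arrays (0.0485) and with robust, trended variances (0.0412). The adjusted p without control B was 0.210, and 0.228 without mutants A and B. In every setting run the difference was below 0.

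The dimmer Crhr1 probe showed the same order of arrays among the controls and was lost from view in mutants. Its signals were 39.8, 108.1 and 154.7 in controls A, B and C, all well above background, and 8.20, 6.87 and 2.41 in mutants, none of them well above background. Set against the detection limit of each mutant array, the lowest signal there that was well above background, it was at least 2.89-fold lower in mutants (control mean -4.73, bound of the mutant mean -6.26, measured mutant mean -8.55). Tested on its own it gave -3.83 (adjusted p = 0.0262), but it passed the filter through the controls alone and had to differ, so that this value adds no support of its own. In the deposited equalized values the probe read 111.5, 159.6 and 200.6 in controls and 66.0, 66.2 and 63.4 in mutants. Its lack of overlap between groups likewise adds no support. The brighter probe gave no overlap in either version of the values, and in the main values 14.0% of all genes tested lay entirely lower in mutants. Both probes belong to the same gene and arrays and are not independent measurements.

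**Figure D3:**
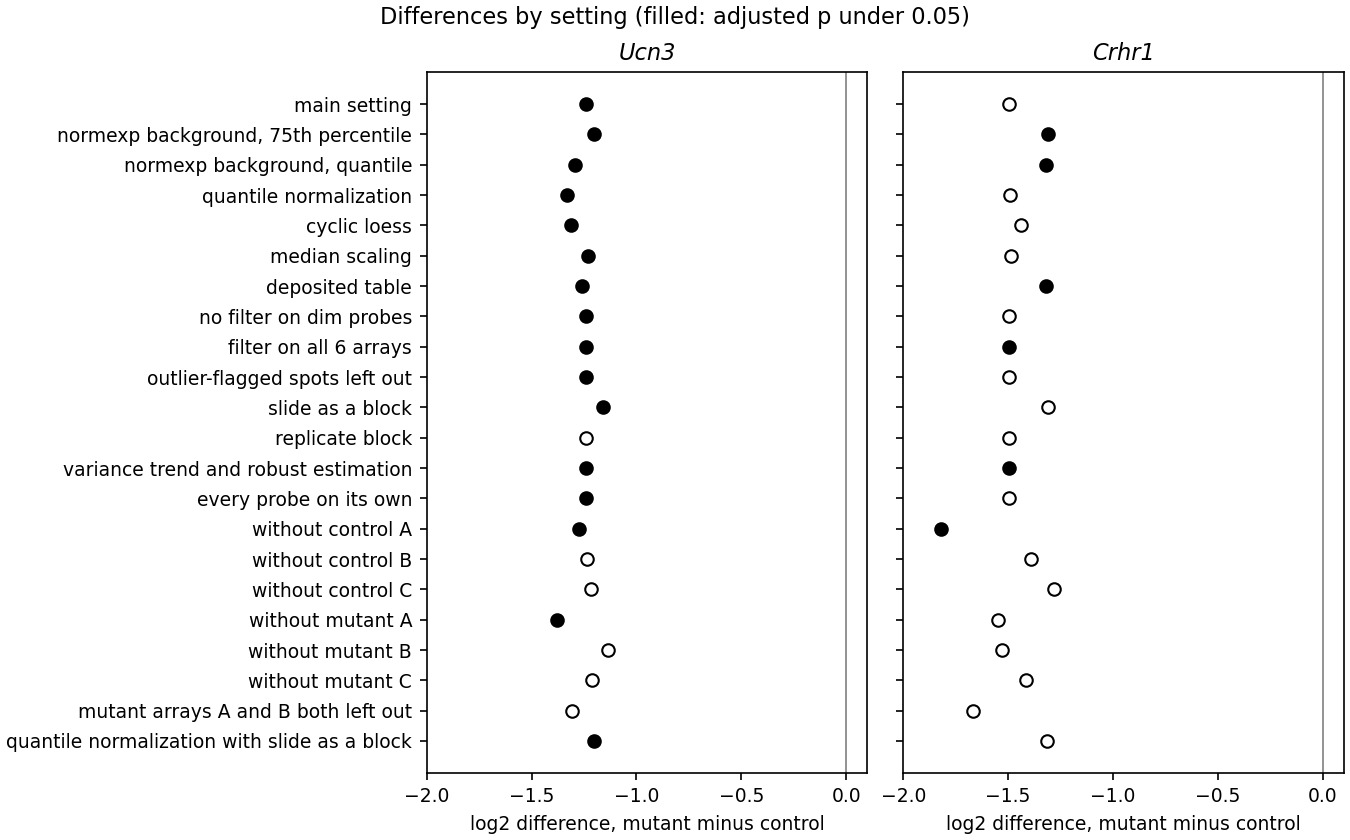
Log2 difference, mutant minus control, of Ucn3 (left) and of the brighter Crhr1 probe (right) under each setting listed on the vertical axis; filled points had an adjusted p under 0.05 in limma. The Ucn3 estimates spanned -1.38 to -1.14 and the Crhr1 estimates -1.82 to -1.28, and which of them passed differed between settings.

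Crhr2, the receptor gene for urocortin 2 and urocortin 3, did not share this pattern. Its signals were 495.3, 578.0 and 484.2 in controls and 726.3, 480.8 and 604.1 in mutants. On the normalized log2 scale they were -1.95, -2.10 and -2.42 in controls (-2.16 ± 0.24, SD, n = 3) and -1.73, -1.94 and -1.43 in mutants (-1.70 ± 0.26, SD, n = 3). The groups did not overlap by the smallest of margins, mutant B at -1.94 against control A at -1.95, and before scaling they did overlap. The difference of 0.46 (SE 0.19) did not pass (adjusted p = 0.244), with a 95% interval of 0.0049 to 0.92. A fall of Crhr2 of the size measured for Ucn3 lies outside that interval. The array holds 1 Crhr2 probe, so transcript forms of the receptor were not told apart.

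Markers of delta cells, the islet cells known for Crhr2, read somewhat higher on the same mutant arrays. Centred on the controls, the mean of the 5 genes was 0.35, 0.22 and -0.57 on control arrays A to C, and on mutant arrays A to C it was 0.46, 0.75 and 0.93, with summed normalized signals of 204.2 to 348.8 in controls and 314.5 to 454.8 in mutants, and 0 of the 5 passed (limma). All 5 were well above background on every array. Alpha cell markers stood higher in mutants too, with 7 genes averaging 0.31, -0.02 and -0.29 on the control arrays and 0.38, 0.61 and 0.69 on the mutant arrays (median difference 0.49, summed normalized signals of 319.3 to 468.0 in controls and 343.1 to 614.0 in mutants), and 0 of the 7 passed (limma). The brightest gene of each list had saturated pixels, Sst (somatostatin) on 5 arrays and Gcg (glucagon) on 4, which limits the summed signals. The part of either list in the Crhr2 values was not tested.

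Crhbp, the secreted binding protein, was dim and variable. Its signals were 52.8, 232.7 and 69.6 in controls and 164.7, 179.1 and 88.7 in mutants, well above background on all arrays. In these signals control B was higher than every mutant. On the normalized log2 scale control B (-3.41) lay above mutants A and C and just below mutant B (-3.36), so the groups overlapped on both. The levels were -4.61 ± 1.03 in controls and -3.81 ± 0.42 in mutants (SD, n = 3 each), a difference of 0.80 (SE 0.53, adjusted p = 0.447) with a 95% interval of -0.50 to 2.09. The estimate rested on single arrays, at 1.39 without control B, 0.51 without control A and 0.49 without control C, and it ran from 0.41 to 1.01 over the other settings, passing in none. A fall of the size measured for Ucn3 lies outside that interval, and a rise of the same size lies within it.

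Beta cell markers were read beside Ucn3 and Crhr1, since both genes are known from these cells. Centred on the controls, the 7 beta cell markers averaged 0.17, -0.05 and -0.12 on the control arrays. On the mutant arrays they averaged -0.49, -0.52 and -0.40. The markers did not move together. Slc2a2 (-2.01), G6pc2 (-0.81), Mafa (-0.77) and Nkx6-1 itself (-0.48) were lower in mutants, while Ins1 (0.26), Iapp (0.26) and Ins2 (0.25) had higher means. Their summed normalized signals overlapped, at 673.8 to 957.3 in controls and 624.3 to 1041 in mutants. Of the 7, 1 passed in limma, Slc2a2, the glucose transporter GLUT2, which fell by 2.01 (adjusted p = 0.0415). That call was lost with dim probes kept in the fit (0.0629), under cyclic loess (0.0517) and, by the narrowest of margins, under quantile normalization (0.050004), and in 5 of 6 fits with 1 array left out, where mutant A was the exception (adjusted p from 0.0215 to 0.166). The insulin gene Ins2 did not pass (0.25, adjusted p = 0.702, its sign turning under some scalings given in the closing section). Relative to Ins2 on the same array, Ucn3 stood at -0.50, 0.23 and 0.26 in controls and -0.62, -1.76 and -2.08 in mutants, so that mutant A came close to control A and the others lay well below. Relative to Slc2a2 it stood at 0.20, -0.14 and -0.06 in controls and 0.33, 0.81 and 1.15 in mutants, where all mutants lay above the controls. On the log2 scale, Ucn3 therefore changed by less than Slc2a2 and by more than Ins2 on these arrays. The ratio of Crhr1 to Ins2 overlapped, at -1.08, 0.43 and 0.65 in controls and -1.05, -1.74 and -2.44 in mutants. It overlapped relative to Iapp and Slc2a2 too. Relative to Ins1 it did not (lowest control -0.92, highest mutant -1.35), nor relative to Sst (-1.02 and -1.47). The Ins1 and Sst spots each had saturated pixels on 5 arrays.

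Acinar markers varied more between the mutant arrays than between the controls. Centred on the controls, 12 acinar genes averaged -0.25, -0.08 and 0.32 on the control arrays and -0.88, 0.87 and 1.66 on the mutant arrays, with summed normalized signals of 1185 to 1611 in controls and 780.2 to 3592 in mutants. Mutant A had the lowest acinar signal of the 6 arrays and the highest Ucn3 of the mutants (-0.97 relative to the control mean). Mutants B and C had more acinar signal and less Ucn3 (-1.45 and -1.31), but C exceeded B in both. Among the controls the order ran the other way, with control A lowest and control C highest in both (Ucn3 at -0.067 and 0.054). Mutant A was also the only mutant on slide 2, so acinar signal and slide cannot be told apart there. The part of acinar RNA in the Ucn3 values was not tested. Of the 12 acinar genes, 0 passed (limma).

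Genes with the profile nearest to Ucn3 were found by the root mean square distance over the 6 arrays, each gene centred on its control mean, among 17078 tested genes with a symbol. The nearest were Atp2a2, the SERCA2 calcium pump of the endoplasmic reticulum (distance 0.080 on the log2 scale, Pearson r = 0.99), Vdr, the vitamin D receptor (0.086, r = 0.99), Itpkb, an inositol trisphosphate kinase (0.092, r = 0.99), Vps37b, a subunit of the ESCRT-I sorting complex (0.12, r = 0.98), and Uap1l1 (0.14, r = 0.98). Each of these fell, by 1.21, 1.29, 1.23, 1.20 and 1.18 (limma, adjusted p from 0.0125 to 0.0415). With 1 array left out, Vps37b passed in 3 of 6 fits, Atp2a2, Vdr and Uap1l1 in 2 each and Itpkb in 1. The r values rest on 6 arrays in groups that the choice of nearest genes sets apart. The brighter Crhr1 probe ranked 269 by the same distance (0.37, r = 0.92), Mafa, an activator of insulin genes, ranked 231 (0.36, r = 0.96), and Nkx6-1 itself ranked 1248 (0.56, r = 0.89). Crhr2 and Crhbp ranked 15068 and 16431, with r of -0.73 and -0.54.

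**Figure D4:**
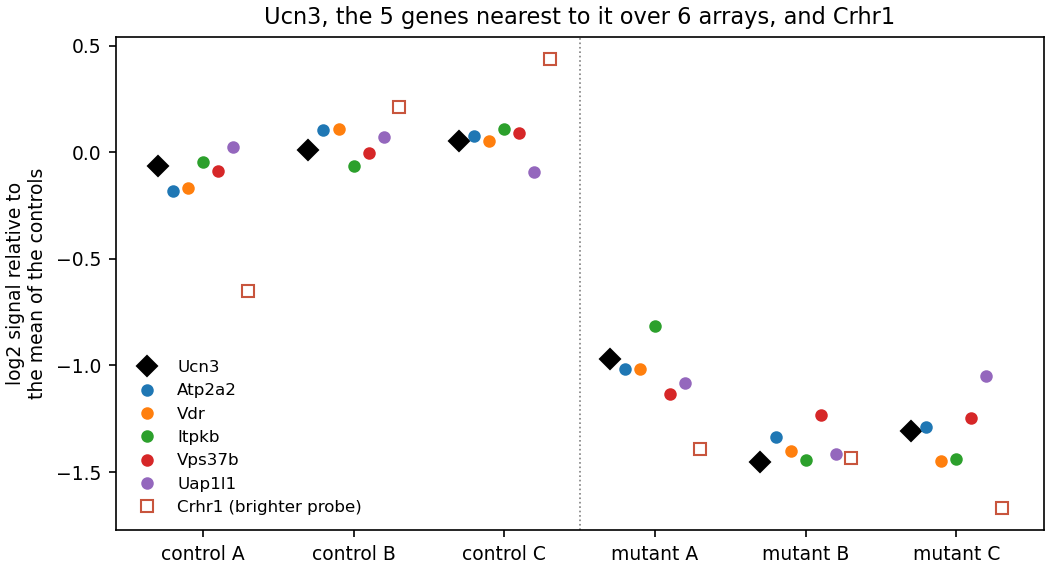
Log2 signal relative to the mean of the controls on each array for Ucn3 (diamonds), the 5 genes with the smallest distance to it (filled circles) and the brighter Crhr1 probe (open squares). The 6 profiles from Ucn3 to Uap1l1 lay between -0.18 and 0.11 in controls and between -1.45 and -0.81 in mutants, and Crhr1 departed from them most on control A, at -0.65.

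Promoter windows were read for Ucn3, as the called gene, and for Crhr1, as the other member with lower mutant arrays. The windows run from 250 bases before to 50 bases after the annotated start (RefSeq, GRCm38.p6), with the letters TAAT, the core that homeodomain proteins such as NKX6-1 bind, in capitals on either strand (ATTA on the strand shown).
Ucn3, chr13:3945300-3945599, minus strand: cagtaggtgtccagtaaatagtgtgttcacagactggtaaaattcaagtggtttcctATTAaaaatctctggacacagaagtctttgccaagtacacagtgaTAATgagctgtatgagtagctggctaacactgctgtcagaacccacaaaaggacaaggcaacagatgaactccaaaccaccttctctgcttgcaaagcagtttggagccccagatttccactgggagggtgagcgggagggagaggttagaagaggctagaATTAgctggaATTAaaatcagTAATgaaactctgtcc
Crhr1, chr11:104132531-104132830, plus strand: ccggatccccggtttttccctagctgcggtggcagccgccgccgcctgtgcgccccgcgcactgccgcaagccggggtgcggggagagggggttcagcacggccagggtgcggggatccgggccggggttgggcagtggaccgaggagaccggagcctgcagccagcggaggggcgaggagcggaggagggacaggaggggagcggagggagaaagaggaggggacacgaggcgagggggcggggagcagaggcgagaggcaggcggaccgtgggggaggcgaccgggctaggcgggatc
The Ucn3 window held 5 matches, 2 before and 3 after the start, none of which overlap, and the Crhr1 window, at 75% G and C, held 0. The core is common, with a match in 58.0% of 32851 windows of this length, and the windows of Crhr2 and Ucn held 0 and that of Crhbp 3. The longer letters TTAATTA, present in 3.07% of windows on either strand, were in none of these 5. Of 7 members 5 had a window in the table. A match describes letters and shows no binding.

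The surrounding pathways were examined in 8 lists of 110 genes, of which 102 were tested, chosen like the members with earlier results known. Across them 2 genes rose and 9 fell (10.8% called against 2.53% of all genes tested), most of them genes of beta cell maturity. The median difference over the 102 genes was 0.047, beside -0.025 over all genes tested. The count was 1 when control B, control C, mutant B or mutant C was left out, 7 when control A was and 10 when mutant A was. Without mutants A and B it was 0, with 28 at an unadjusted p under 0.05 (limma).

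Downstream of the receptors, no gene of the cyclic AMP arm passed. Of 28 tested genes for G protein subunits, adenylyl cyclases, protein kinase A, Epac and the CREB family, 0 were called (limma, median 0.076), with the largest differences in the adenylyl cyclase gene Adcy2 (0.64, adjusted p = 0.0886) and the CREB family gene Crem (0.60, adjusted p = 0.0930). Of 7 genes of receptor desensitisation, 1 fell and 0 rose. That gene was Grk5, a G protein-coupled receptor kinase, at 0.05 in controls and -1.02 in mutants (difference -1.08, SE 0.16, adjusted p = 0.0335), and it did not pass with any single array left out (adjusted p of 0.0571 to 0.148).

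Among 10 tested class B receptor genes, the family of Crhr1 and Crhr2, 1 fell and 0 rose, with a median of -0.023. Vipr1, a receptor for vasoactive intestinal peptide, fell from 3.49 to 2.72 (difference -0.77, SE 0.095, adjusted p = 0.0246), a call that was lost in 5 of 6 fits with 1 array left out, all but that without control A (adjusted p from 0.0451 to 0.127). Glp1r, the GLP-1 receptor of beta cells, read -2.03, -1.02 and -0.86 in controls and -2.23, -2.15 and -2.21 in mutants, so that like Crhr1 it had its lowest control on array A. Its difference of -0.89 did not pass (adjusted p = 0.191), but as for Crhr1 it passed with control A left out (-1.25, adjusted p = 0.0298). Gcgr (0.59, adjusted p = 0.161), Adcyap1r1 (0.56, 0.468) and Gipr (-0.13, 0.859) did not pass either, and Gipr turned positive with slide as a block (0.16).

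Of 10 genes that process prohormones into active peptides, 1 rose and 0 fell. Pam, the enzyme that amidates peptides such as the urocortins, rose from 2.48 to 4.59 (difference 2.11, SE 0.28, adjusted p = 0.0277), opposite in direction to Ucn3. Its call too was lost in 5 of 6 fits with 1 array left out, all but that without control A (adjusted p from 0.0463 to 0.119). In the somatostatin arm, the delta cell output that urocortin 3 is known to drive, 0 of 6 genes passed (limma). Sst, the somatostatin gene, read 8.25, 7.87 and 7.51 in controls and 7.96, 8.36 and 8.51 in mutants, which overlapped (0.40, adjusted p = 0.398). Its spot had saturated pixels on 5 of the 6 arrays. The difference was 0.12 under quantile normalization, 0.085 with normexp added and 0.12 in the deposited table, and it ran from 0.22 (without control C) to 0.58 (without control A) with 1 array left out. The receptor genes Sstr1 (1.07, adjusted p = 0.0918) and Sstr4 (-0.89, 0.116) had the differences furthest from 0 in the list.

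Of 9 tested genes of the stress axis, in which CRH is best known, 0 passed (limma). Avpr1b, a vasopressin receptor gene, was at 0.61 (adjusted p = 0.247) and Pomc, the precursor of ACTH, at 0.53 (0.106). Of 20 genes of beta cell maturity, 7 fell and 0 rose, with a median of -0.62. They included Sytl4, granuphilin (-2.45, adjusted p = 0.00601), Ero1b, an oxidase of proinsulin folding (-1.52, 0.0210), Vdr (-1.29, 0.0240) and the zinc transporter gene Slc30a8 (-0.96, 0.0282), while Mafa was at -0.77 (0.0594) and Ins1 at 0.26 (0.481), with saturated pixels on 5 of the 6 arrays and a sign that turned under quantile normalization (-0.041). Of 13 tested genes in the immature beta cell list, 1 rose and 0 fell. That gene was Neurog3, known from endocrine progenitors (2.17, adjusted p = 0.0139). With 1 array left out, Sytl4 passed in all 6 fits, Ero1b, Vdr and Neurog3 in 2 each and Slc30a8 in 1.

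**Figure D5:**
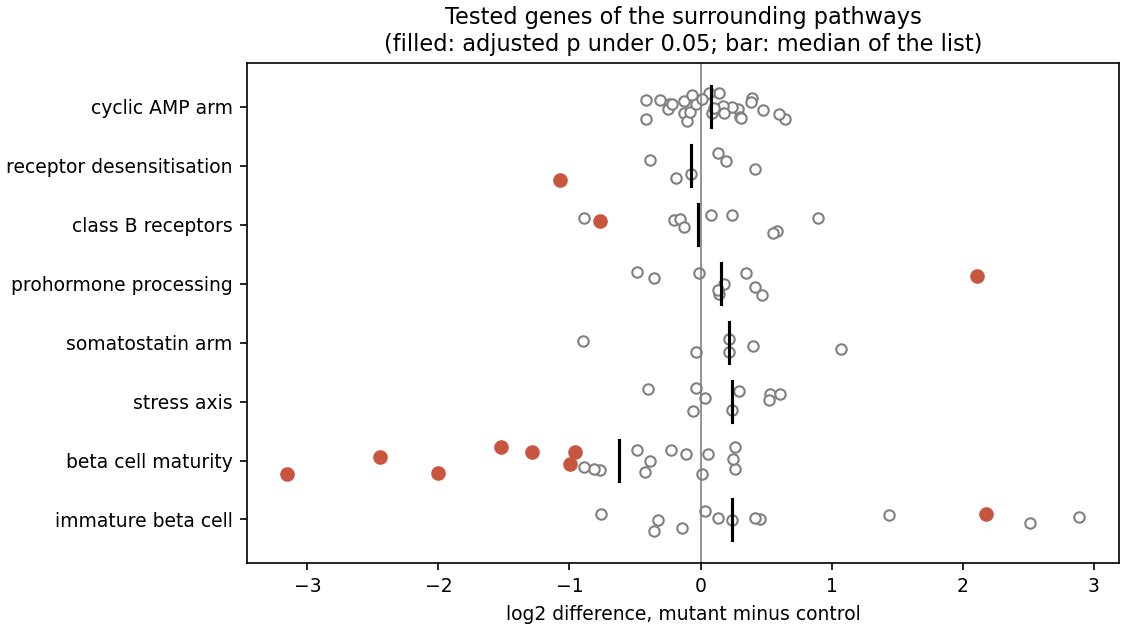
Log2 difference, mutant minus control, of each tested gene in 8 lists around the urocortin and CRH receptor system; filled points had an adjusted p under 0.05 in limma, and the black bar is the median of the list. Of 20 beta cell maturity genes 7 were called lower, and of 28 genes of the cyclic AMP arm 0 were called.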

How the data were processed

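The authors' scanner files came from Agilent Feature Extraction 10.7.3.1, per the submitters' processing notes, and hold spot intensities corrected for background and detrended, per the file headers, each array by itself. The deposited flags (other values) mark spots that were saturated, outliers or well above background. Another table deposited by the authors gives linear intensities equalized between arrays by a method not given in the sources used here, with column medians from 266.95 to 274.55. It was used as an alternative. RNA (150 ng) was labelled with Cy3, per the labels.

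Log2 signals were averaged over the spots of a probe and scaled by subtracting each array's 75th percentile over all non-control spots. Probes well above background on all arrays of at least 1 group were tested (28361 of 39429), and the probe with the highest mean signal stood for each of 22775 gene names. Files were read in R 4.3.3, and mutants were set against controls in limma 3.58.1 (two-sided). The fit was also run on simulated data with independent noise and no slide effect, which checks the code and not the calls made here. The 95% intervals are limma's. Members were matched by the gene name of the files. Other symbols came from a RefSeq list through the accessions, which matched for 15528 tested gene names. The p-values measure only the spread between the 3 pools of each group. The members, lists, named genes and alternatives were chosen with earlier results of these data known. The rule names all members, for each list up to 4 called genes by p (or, with no call, the 2 with the largest difference), some receptor, somatostatin and beta cell genes in any case, and the 5 genes nearest to Ucn3. The letters A to C recur in both groups, no label ties them to litters, and they were not used as pairs.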

Additional observations from a re-analysis of the deposited data

How the results depend on the processing

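Normexp background correction, quantile, cyclic loess and median scaling, the deposited table, other filters, outlier removal, a slide block, a variance trend, every probe on its own and each array left out were tried, and 2 further settings were chosen after seeing the data (mutants A and B both left out, and quantile normalization with a slide block). Ucn3, Crhr1, Crhr2 and Crhbp kept their direction in all of them. With the sample letter as a replicate block Ucn3 stood at -1.24 (adjusted p = 0.162), and 0 genes in all and 0 of the pathway genes were called (limma, 3163 and 30 at an unadjusted p under 0.05). Deviations of samples with the same letter correlated at -0.23, -0.19 and -0.031, but each of these pairs lay on different slides. Controls and mutants on the same slide correlated at 0.20, 0.084, 0.23 and 0.12. The remaining pairs, on different slides, stood at -0.099 and -0.12. Without mutants A and B, Ucn3 stood at -1.31, and 4 genes in all and 0 pathway genes were called. Crhr1 passed at -1.31 with normexp, at -1.32 with normexp and quantile normalization, at -1.32 in the deposited table, at -1.50 with a filter on all 6 arrays and at -1.50 with a variance trend. Its dimmer probe, which passed the filter through the controls alone, gave -3.83. With 1 array left out, Ucn3 ran from -1.38 to -1.14, Crhr1 from -1.82 to -1.28, the count of called genes from 13 to 418 against 576, and the pathway count from 1 to 10 against 11. The counts in all were 418, 13 and 21 when control A, B or C was left out, and 282, 18 and 79 for mutant A, B or C. Ins1 turned to -0.041 under quantile normalization, -0.0086 with normexp added, -0.023 in the deposited table and -0.0030 with quantile normalization and a slide block. Ins2 turned to -0.11 with normexp and quantile normalization, -0.057 in the deposited table, -0.0089 with a slide block, -0.063 with that block and quantile normalization, and -0.019 without mutant C (up to 0.54 with mutant A left out instead). Gipr turned to 0.16 with a slide block, 0.15 with quantile normalization added, and 0.048, 0.015 and 0.037 without control B, mutant B and mutant C (down to -0.43 without mutant A). Adcyap1r1 turned to -0.024 without mutants A and B. The causes were not tested. Signal over background limits Ucn, Ucn2, Crh and the dimmer Crhr1 probe in mutants.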
